A study of Mus musculus with 12 samples.

Results

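The genes that encode the intermediate filaments of muscle, together with the cytolinker plectin and lamin A/C, were examined in the tibialis anterior, a hindlimb muscle. The set of 10 genes (Des, Synm, Sync, Plec, Vim, Nes, Krt8, Krt18, Krt19 and Lmna) was taken by symbol from a table of 24421 gene entries, and all 10 were found. RNA was sequenced from 6 WT samples, of strain C57Bl/6, and 6 mdx/mTR samples, all from males at 4 months of age. Dystrophin is lost through the mdx mutation of Dmd, and mTR stands for the RNA component of telomerase, whose gene appears in the table as Terc. The labels describe no treatment, and a littermate control, the telomerase generation of the mdx/mTR mice and the sharing of an animal between samples are not given in the sources used here. The p-values therefore measure the spread between these samples, each taken as 1 mouse.

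Intermediate filaments are rope-like polymers of coiled-coil proteins that give cells tensile strength. In the adult muscle fibre desmin is the main one: it ties neighbouring Z-discs to each other, to the membrane sites above them (costameres) and to the nuclei, while synemin and syncoilin join desmin filaments and bind the dystrophin-associated protein dystrobrevin, and plectin crosslinks the filaments to Z-discs, costameres, mitochondria and nuclei. Vimentin and nestin are prominent in myoblasts and newly formed fibres and are largely replaced by desmin as fibres mature, and vimentin is also abundant in fibroblasts, leukocytes and endothelium. Keratins form obligate pairs of a type I and a type II chain, such as Krt18 with Krt8 in simple epithelia, and lamins A and C line the inside of the nuclear envelope.

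Of the 10 genes, 6 were higher in mdx/mTR muscle (Krt18, Krt8, Vim, Nes, Lmna and Sync), 3 were lower (Krt19, Synm and Plec) and Des did not pass the threshold of an adjusted p of 0.05 (edgeR quasi-likelihood test, Benjamini-Hochberg over all genes tested). Changes were common in this muscle: 48.3% of the 13937 genes tested passed, 25.0% higher and 23.4% lower, so the 9 of 10 are to be read against that background. The same 9 genes had groups that did not overlap in CPM, as did 25.2% of all genes tested. Among them, Krt8 and Krt18 passed the filter on low counts only through mdx/mTR, and Krt19 only through WT. The calls and separations of these keratins are therefore not support of the same kind as those of the other genes. The largest changes were those of Krt18 and Krt8, whose group means differed by 21.2 and 17.7 times, from WT levels near the limit of detection. The median log2 fold change of the 10 genes was 0.58, against 0.01 over all genes tested. Levels are given as CPM, the counts of a gene relative to a library total scaled by TMM (trimmed mean of M-values), and fold changes are mdx/mTR over WT.

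Library totals were 36903560 to 40981012 counts for WT, against 35136327 to 60330410 for mdx/mTR. A gene with 0 counts could have had up to 3, which corresponded to 0.0460 to 0.0837 CPM. Dmd, which checks the labels, fell from 237 ± 6.90 to 46.8 ± 7.20 CPM (SD, 6 mice per group). Terc had 2 counts in WT and 0 in mdx/mTR, so the second mutation could not be examined in these counts. With library totals alone in place of TMM, the median over every gene tested moved up by 0.16 on the log2 scale, and none of the 10 genes changed direction. Mature fibre markers were abundant in every sample, as the labelled tissue requires, with 7 genes summing to 140630 to 168915 CPM in WT against 110818 to 155576 CPM in mdx/mTR. Reads came from whole muscle, in which fewer cells of a type and less RNA per cell cannot be told apart.

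**Figure D1:**
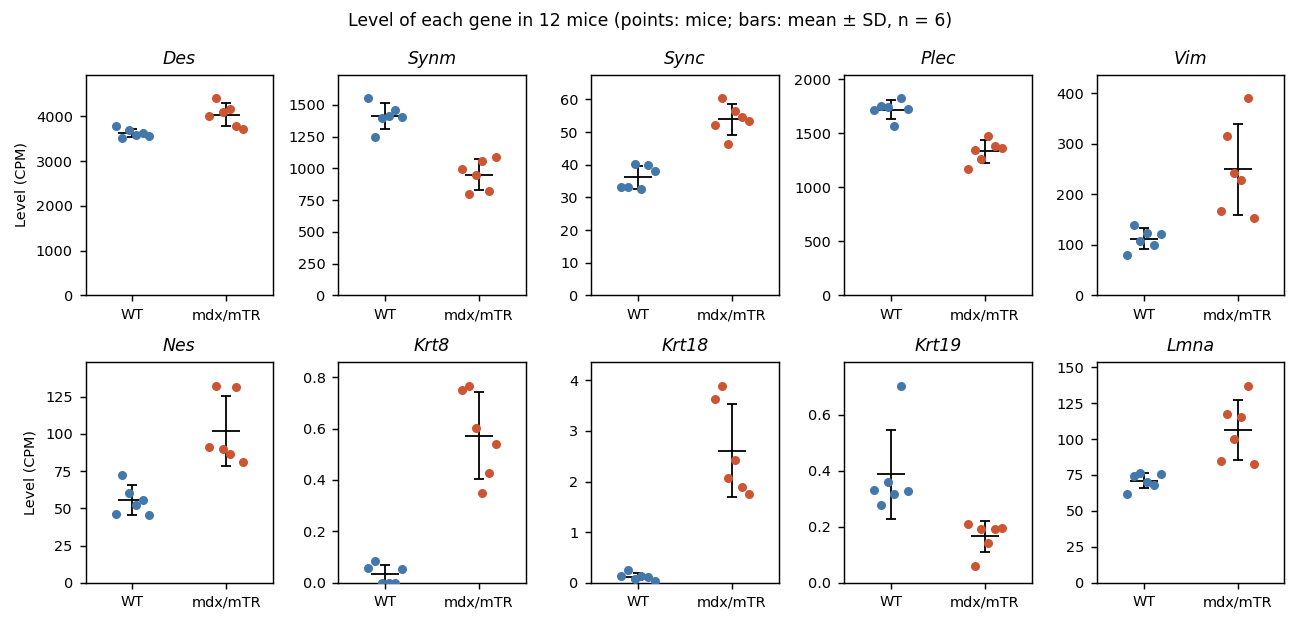
Level of each gene in CPM (vertical axes, each starting at 0) in 6 WT and 6 mdx/mTR mice; each point is a mouse and the bars are the mean and SD. The groups overlap for Des and are separate for the other 9 genes, as they are for 25.2% of all genes tested.

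Levels were compared between genes per kilobase of the longest coding transcript in GENCODE M21, since a longer transcript yields more reads. In WT, Des stood at 1197 ± 32.1 CPM per kilobase (SD, n = 6), followed by Synm at 181 ± 12.9, Plec at 111 ± 5.57 and Vim at 51.3 ± 9.58. Lmna (22.5 ± 1.75), Sync (17.7 ± 1.74) and Nes (9.05 ± 1.63) came next on this scale, and the keratins lay far below: Krt19 at 0.246 ± 0.1002, Krt18 at 0.0856 ± 0.0519 and Krt8 at 0.0165 ± 0.0189. Over the 6 WT mice, the ranges of neighbours in that order did not overlap, except those of Krt18 and Krt8. The lowest Krt19 (0.1771) cleared the highest Krt18 (0.1748) only narrowly. In mdx/mTR the order differed at 2 places. Vim, at 114 ± 41.3 CPM per kilobase, stood between Synm (122 ± 15.3) and Plec (86.2 ± 6.91) and overlapped both, and Krt19, at 0.105 ± 0.0354, fell behind Krt18 (1.82 ± 0.642) and Krt8 (0.292 ± 0.0865). Des remained at the top at 1331 ± 84.8 CPM per kilobase and made up 75.3% ± 0.537 of the summed per-length level of the 10 genes in WT and 76.9% ± 2.14 in mdx/mTR. The share of Synm was 11.4% ± 0.633 in WT and 7.07% ± 1.18 in mdx/mTR, and that of Vim 3.24% ± 0.664 and 6.52% ± 2.24.

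Promoter sequences of 8 of the 10 genes were found in RefSeq (GRCm38.p6), as 9 windows of 300 bases around the annotated start. They are shown for the 2 keratin genes, which moved together from near 0, for Des, the most abundant of the genes, and for Vim. Capitals mark the E-box CANNTG, the core of sites bound by the myogenic regulators of the MyoD family. Krt8 is at chr15:102004293-102004592 on the minus strand, Krt18 at chr15:102027966-102028265 on the plus strand, Des at chr1:75360042-75360341 on the plus strand and Vim at chr2:13574061-13574360 on the plus strand.
Krt8: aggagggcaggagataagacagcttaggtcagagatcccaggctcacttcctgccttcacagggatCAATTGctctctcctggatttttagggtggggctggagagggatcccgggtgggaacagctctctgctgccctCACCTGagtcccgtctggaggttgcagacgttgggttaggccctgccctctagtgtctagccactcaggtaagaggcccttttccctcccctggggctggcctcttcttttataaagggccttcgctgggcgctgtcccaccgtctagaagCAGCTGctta
Krt18: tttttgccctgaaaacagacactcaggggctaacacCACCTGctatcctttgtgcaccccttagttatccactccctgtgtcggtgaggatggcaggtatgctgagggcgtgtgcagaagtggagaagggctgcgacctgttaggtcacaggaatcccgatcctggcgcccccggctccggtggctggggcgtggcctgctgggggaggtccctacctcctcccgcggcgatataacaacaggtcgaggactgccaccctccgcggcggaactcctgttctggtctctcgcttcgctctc
Des: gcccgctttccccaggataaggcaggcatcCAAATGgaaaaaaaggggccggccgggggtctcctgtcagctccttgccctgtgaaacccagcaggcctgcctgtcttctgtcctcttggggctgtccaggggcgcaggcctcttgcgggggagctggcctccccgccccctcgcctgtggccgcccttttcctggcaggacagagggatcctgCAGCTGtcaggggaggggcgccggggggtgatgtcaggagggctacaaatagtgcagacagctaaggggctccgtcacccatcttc
Vim: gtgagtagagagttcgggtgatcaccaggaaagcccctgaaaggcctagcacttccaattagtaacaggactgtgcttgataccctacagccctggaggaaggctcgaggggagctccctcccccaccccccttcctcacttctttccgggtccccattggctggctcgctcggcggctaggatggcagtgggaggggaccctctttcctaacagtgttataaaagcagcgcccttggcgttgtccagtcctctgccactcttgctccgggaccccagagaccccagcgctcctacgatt
The window of Krt8 holds 3 E-boxes, that of Krt18 holds 1, that of Des 2 and that of Vim 0. Among the windows not shown, Sync has 2, Synm 1, and Nes and both windows of Lmna 0. An E-box is common: 72.3% of the 32851 promoter windows of the table hold at least 1. The other motifs searched, on both strands and with overlapping matches counted, were TGANTCA (an AP-1 site, in 7.81% of all windows), TATAAA (13.6%), the CArG box (1.63%) and the MEF2 site (3.19%). TGANTCA occurred in 1 window of Lmna, TATAAA in those of Vim and Krt8, and the CArG box and MEF2 site in 0 of the 9. A match describes the letters of the window and no more.

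The RNAs of desmin and of the proteins that sit on it in the fibre did not move as a block. Des (chr1:75360329-75368579, GRCm38, plus strand) ranged from 3518 to 3778 CPM in WT, with a median of 3599, and from 3707 to 4405 CPM in mdx/mTR, with a median of 4062. The groups overlapped only at the edge: of the mdx/mTR mice, replicate 6 alone (3707 CPM) lay below the highest WT mouse, replicate 1 (3778 CPM). For Des the log2 fold change was 0.15 ± 0.06 (SE) with an adjusted p of 0.054 in edgeR. That call turned on the setting. DESeq2 gave 0.15 with an adjusted p of 0.0059, limma-voom gave 0.15 with 0.038, upper quartile scaling 0.19 with 0.018, a minimum of 1 CPM 0.17 with 0.028, and library totals alone 0.31 with 0.00060. Without mdx/mTR replicate 5 it was 0.17 (adjusted p 0.028), and without mdx/mTR replicate 6 it was 0.18 (adjusted p 0.044). Over the 21 alternatives the adjusted p of Des ran from 0.00060 to 0.12, and 7 of them fell under 0.05. Gm15179, an antisense gene over exons of Des, was called lower, from a mean of 8.62 to 6.40 CPM (log2 fold change -0.43 ± 0.10, adjusted p 0.0033).

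Synm encodes synemin, the large filament protein that co-assembles with desmin and binds dystrobrevin and utrophin. Synm (chr7:67730160-67759742, minus strand) ran from 1245 to 1553 CPM in WT, with a median of 1407, and from 799 to 1089 CPM in mdx/mTR, with a median of 973. All 6 mdx/mTR mice lay below all 6 WT mice, which is so in the lower direction for 12.6% of genes tested. The log2 fold change was -0.57 ± 0.08 (SE, adjusted p 0.00012), a mean of 67.4% of WT, and it was -0.42 with library totals alone. A gene on the opposite strand, Ttc23, overlaps exons of Synm and the strand handling of the counts is not given in the sources used here, and Ttc23 averaged 12.9 CPM in WT with a log2 fold change of -0.11 (adjusted p 0.16).

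Sync encodes syncoilin, which binds desmin and dystrobrevin. Sync (chr4:129287617-129308559, plus strand) ranged from 32.6 to 40.1 CPM in WT, with a median of 35.7, and from 46.4 to 60.3 CPM in mdx/mTR, with a median of 54.0. The groups were separate in the higher direction, as for 12.6% of genes tested. Its log2 fold change was 0.58 ± 0.07 (adjusted p 3.4e-05), so the RNAs of these partners of desmin moved in opposite directions: Synm down and Sync up. Rbbp4, on the opposite strand, overlaps exons of Sync and was also higher, from 84.6 to 112 CPM (log2 fold change 0.41), and reads from the shared stretch cannot be told apart.

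Plec encodes plectin, the crosslinker between filaments and the structures they anchor to. Plec (chr15:76170974-76232574, minus strand) ran from 1563 to 1825 CPM in WT, with a median of 1734, and from 1169 to 1479 CPM in mdx/mTR, with a median of 1354. No mdx/mTR mouse reached the lowest WT mouse. The log2 fold change was -0.37 ± 0.06 (adjusted p 0.00046), and it was -0.21 with library totals alone (adjusted p 0.028). Plectin has several isoforms with different first exons, which gene counts do not separate. Parp10, on the same strand, overlaps exons of Plec and had means of 10.4 CPM (WT) and 9.67 CPM (mdx/mTR), with a log2 fold change of -0.10 (adjusted p 0.56).

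**Figure D2:**
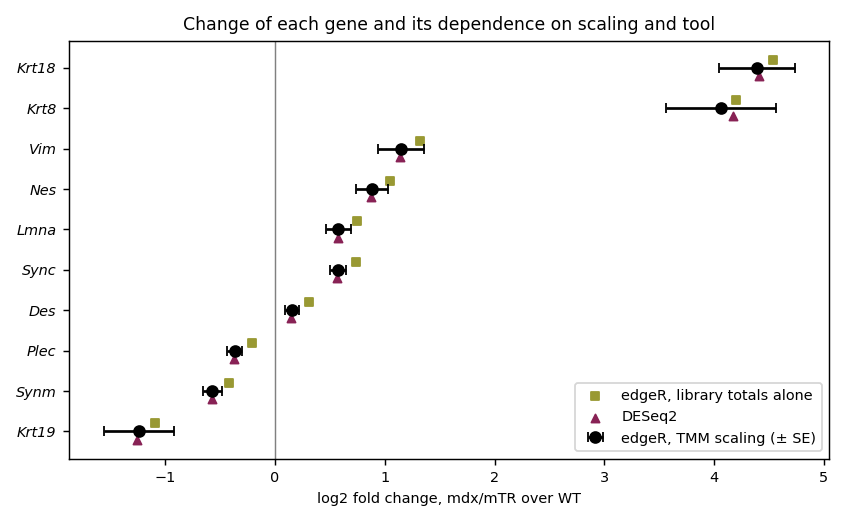
Horizontal axis, log2 fold change (mdx/mTR over WT) for the 10 genes: circles are edgeR with TMM scaling with the standard error, squares edgeR with library totals alone and triangles DESeq2. Krt18 (4.39) and Krt8 (4.06) are highest, Krt19 (-1.24) is lowest, and no gene crosses 0 between the 3 sets of points.

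Vim and Nes, the genes of filament proteins of immature muscle cells, were both about doubled in RNA level. Vim (chr2:13573927-13582826, plus strand) ranged from 80.6 to 140 CPM in WT, with a median of 115, and from 153 to 390 CPM in mdx/mTR, with a median of 235. Every mdx/mTR mouse was above every WT mouse, but the mdx/mTR mice were widely spread, with a coefficient of variation of 36.3% against 18.7% in WT. The log2 fold change was 1.15 ± 0.21 (adjusted p 0.00058), between 0.97 and 1.25 when each mouse was left out in turn. Nes (chr3:87971078-87980451, plus strand) ran from 45.6 to 72.4 CPM in WT, with a median of 53.8, and from 81.0 to 133 CPM in mdx/mTR, with a median of 90.6. The groups were again separate, and the log2 fold change was 0.88 ± 0.15 (adjusted p 0.00028).

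Markers of cells known to hold vimentin or nestin moved in different directions. Their counts are to be read against 25% of all genes tested higher and 23.4% lower. Newly formed fibre markers (Myog, Tmem8c, Gm7325, Myh3, Myh8, Chrng and Ncam1) were higher in 7 of 7, summing to 19.5 to 21.4 CPM in WT against 90.3 to 513 CPM in mdx/mTR. Of these, Tmem8c, Gm7325 and Chrng had WT means of 0.059, 0.045 and 0.067 CPM and passed the filter on low counts only through mdx/mTR. Fibroblast markers were higher in 6 of 7 (905 to 1628 CPM and 2254 to 4460 CPM), and macrophage and leukocyte markers in 7 of 7 (42.6 to 73.2 CPM and 109 to 356 CPM). Satellite cell and myoblast markers were higher in 4 of 7 and lower in 1, with sums that overlapped (62.5 to 76.5 CPM and 71.6 to 107 CPM). Endothelial markers were lower in 5 of 7 (572 to 731 CPM and 441 to 547 CPM), Schwann cell markers were lower in 4 of 6 and higher in 1 (44.3 to 56.1 CPM and 25.6 to 39.4 CPM), and pericyte and smooth muscle markers were lower in 4 of 7 and higher in 1 (390 to 539 CPM and 385 to 458 CPM). Nuclei under the neuromuscular junction, where nestin is concentrated in adult fibres, had markers higher in 3 of 5 (61.3 to 68.0 CPM and 69.4 to 83.8 CPM). The part of these cell types in the rise of Vim and Nes was not tested.

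The keratins gave the largest and the most divided changes of the set. Krt18, the type I partner of Krt8 in simple epithelia, lies at chr15:102028180-102032027 on the plus strand, 23.7 kilobases from Krt8 at chr15:101996698-102004482 on the minus strand. Krt18 had 1 to 9 counts in each WT library and 76 to 254 in each mdx/mTR library, or 0.0274 to 0.251 CPM (median 0.119) and 1.75 to 3.90 CPM (median 2.25). The lowest mdx/mTR mouse was far above the highest WT mouse. The log2 fold change was 4.39 ± 0.35 (adjusted p 8.5e-07), the rank 12 rise among the 13937 genes tested. Summed over libraries, 853 counts against 27 gave a ratio of 22.0 with a 95% interval of 15.0 to 33.6, which covers counting error only.

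Krt8 had 0 counts in 3 of the 6 WT libraries and at most 3 in the others, and 17 to 50 counts in the mdx/mTR libraries. As levels this was 0 to 0.0837 CPM in WT (median 0.0274), around the limit that a count of 0 allows, and 0.347 to 0.767 CPM in mdx/mTR (median 0.571). No WT library came near an mdx/mTR library. Its fitted log2 fold change was 4.06 ± 0.50 (adjusted p 2.7e-05), and the summed counts, 185 against 7, gave a ratio of 18.4 with a 95% interval of 8.77 to 46.5. Of the 50-base stretches of the Krt8 transcript, 26.9% also occur in its pseudogene Krt8-ps, whereas for Krt18 the shared part was 0.720%. How reads from shared stretches were counted is not given in the sources used here, so the size of any error in the level of Krt8 is not known. A non-coding gene on the opposite strand, Gm36026, overlaps exons of Krt8. Both keratins passed the filter on low counts only through the mdx/mTR group. Without that filter the log2 fold changes were 4.06 for Krt8 and 4.39 for Krt18.

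Krt19, a smaller type I keratin described with Krt8 at the costameres of muscle, went the other way. Krt19 (chr11:100140810-100148665, minus strand) had 10 to 27 counts in WT against 4 to 12 in mdx/mTR, or 0.279 to 0.705 CPM (median 0.331) and 0.0614 to 0.209 CPM (median 0.192). In CPM all mdx/mTR mice lay below all WT mice, although the raw counts of the groups overlapped. WT replicate 5 stood above the rest of its group. The log2 fold change was -1.24 ± 0.32 (adjusted p 0.0059), and it was -0.98 without WT replicate 5. The summed counts, 51 against 86, gave a ratio of 0.413 with a 95% interval of 0.287 to 0.591. Krt19 passed the low-count filter only through WT, and it was too low to be tested when libraries were thinned to the smallest total or a mean of 1 CPM was asked for.

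Keratins mark epithelia, so the markers of epithelial and mesothelial cells were read beside them. None of the 6 epithelial markers (Epcam, Cdh1, Krt5, Krt14, Krt15 and Cldn4) was high enough to be tested: their sum was 0.157 to 0.530 CPM in WT against 0.0613 to 0.916 CPM in mdx/mTR, with Epcam at 0 in all WT libraries. Of the 4 mesothelial markers, Msln was higher, at 0.133 to 0.418 CPM in WT against 1.23 to 5.07 CPM in mdx/mTR (log2 fold change 3.31), while Wt1 had 0 counts in all libraries and Upk3b and Lrrn4 stayed under 0.03 CPM in every library. Msln passed the filter on low counts only through mdx/mTR, as Krt8 and Krt18 did. The other 25 cytoplasmic intermediate filament genes listed, 17 of them keratins, were mostly silent: 4 could be tested, of which Bfsp1, a lens filament gene, was higher (0.345 ± 0.0913 and 0.558 ± 0.130 CPM, log2 fold change 0.68 ± 0.23, adjusted p 0.024). This 1 of 4 is to be read against 25% higher over all genes tested. Bfsp1 passed the filter on low counts only through mdx/mTR. The Bfsp1 call was lost without WT replicate 6 (adjusted p 0.056), mdx/mTR replicate 3 (0.0502) or mdx/mTR replicate 5 (0.053), and in thinned libraries (0.064). Prph (0.46, adjusted p 0.25), Krt80 (0.32, adjusted p 0.27) and Krt10 (-0.02, adjusted p 0.92) did not pass.

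Lmna encodes lamins A and C, which are spliced from the same gene and stiffen the nucleus. Lmna (chr3:88480147-88509956, minus strand) ranged from 62.0 to 76.5 CPM in WT, with a median of 72.0, and from 82.8 to 137 CPM in mdx/mTR, with a median of 107. The groups did not overlap, and the log2 fold change was 0.58 ± 0.11 (adjusted p 0.00086). The B-type lamins, which are made in most cells, were lower in level and did not pass: Lmnb1 averaged 8.50 ± 1.65 CPM in WT against 10.4 ± 1.65 CPM in mdx/mTR (0.29, adjusted p 0.082), and Lmnb2 5.59 ± 0.615 and 6.67 ± 2.08 CPM (0.26, adjusted p 0.25). For Lmnb1 this turned on the setting, since its adjusted p was 0.025 with library totals alone, 0.018 without WT replicate 2 and 0.046 without mdx/mTR replicate 1.

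Of 19 genes of the nuclear lamina and envelope, all tested, 5 were higher and 7 lower, with a median log2 fold change of -0.04. The shares over all genes tested were 25% higher and 23.4% lower. Tmem43, an inner membrane protein that binds lamins and emerin, rose from 34.1 ± 1.96 to 56.1 ± 9.27 CPM (0.72 ± 0.09, adjusted p 3.7e-05). Tor1a, a torsin ATPase of the envelope lumen, rose from 4.30 ± 0.581 to 5.75 ± 0.982 CPM (0.42). Lbr, the receptor that holds lamin B and heterochromatin at the envelope, fell from 36.2 ± 2.42 to 28.2 ± 1.81 CPM (-0.36 ± 0.06, adjusted p 0.00020), and the LEM-domain gene Lemd2 fell from 33.7 ± 1.56 to 28.01 ± 1.07 CPM (-0.27), a call lost with library totals alone (-0.11, adjusted p 0.11). Emd, which encodes emerin, averaged 29.2 ± 2.48 and 27.4 ± 2.10 CPM (-0.09, adjusted p 0.29), and library totals alone made it positive (0.07).

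Ratios between genes of the same library do not depend on how libraries are scaled, and 5 were tested by a two-sided exact permutation test over the 924 splits of the mice, in which the smallest p is 0.0022. The pairs were chosen with earlier results of these data known. Vim, Nes and Plec were already separate between the groups while Des moved little, so the p-values of their ratios to Des restate those separations and add no independent support. The log2 ratio of Vim to Des was -5.03 ± 0.318 in WT against -4.09 ± 0.503 in mdx/mTR (SD, n = 6 each), a difference of 0.94 (exact p 0.0022, adjusted over the 5 ratios 0.0036). WT mice ran from -5.55 to -4.65 and mdx/mTR mice from -4.60 to -3.28, without overlap. The ratio of Nes to Des differed by 0.72 (exact p 0.0022, adjusted p 0.0036), from -6.05 ± 0.268 to -5.33 ± 0.304. Its groups were separate only narrowly, with a highest WT mouse at -5.603 and a lowest mdx/mTR mouse at -5.585. The ratio of Plec to Des differed by -0.52 (exact p 0.0022, adjusted p 0.0036), from -1.08 ± 0.0789 to -1.60 ± 0.149. Plec RNA was thus lower relative to Des RNA in all 6 mdx/mTR mice than in any WT mouse. The ratio of Lmna to Lmnb2 differed by 0.35 (exact p 0.019, adjusted p 0.024) with overlapping groups. Lmna too was already separate between the groups while Lmnb2 did not pass, so this p-value adds no independent support either.

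The ratio of Krt18 to Krt8 could not be compared. It differed by 0.28 (exact p 0.73, adjusted p 0.73) with 0.5 counts added to each gene and by 1.38 (adjusted p 0.0027) with 5 added, and the WT counts are themselves this small. Pooled over the group, Krt18 made up 79.4% of the 34 keratin counts of the pair in WT (95% Clopper-Pearson interval 62.1% to 91.3%) and 82.2% of 1038 in mdx/mTR (79.7% to 84.5%). The 2 intervals overlap.

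**Figure D3:**
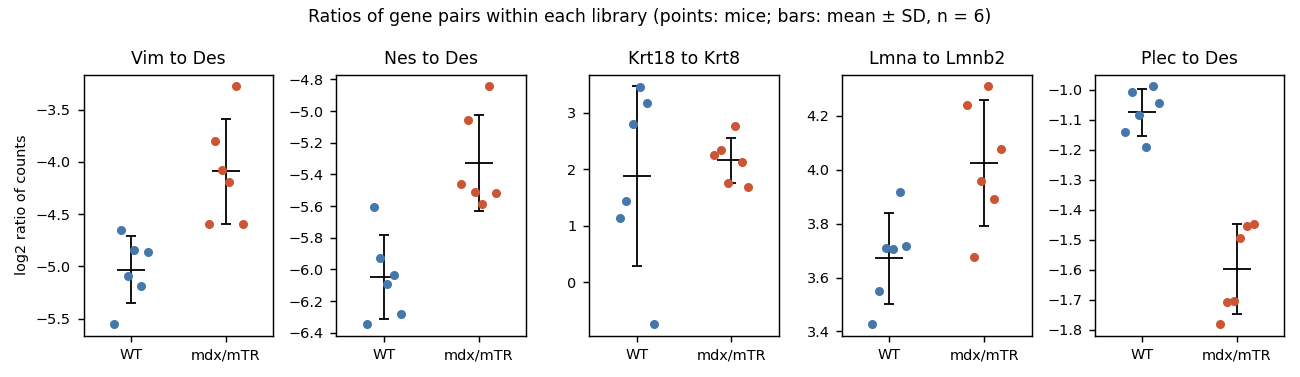
log2 ratio of the counts of gene pairs (vertical axes) in 6 WT and 6 mdx/mTR mice; points are mice, bars the mean and SD. Vim to Des and Nes to Des are higher and Plec to Des lower in every mdx/mTR mouse than in any WT mouse, while the WT points of Krt18 to Krt8 spread from -0.74 to 3.46.

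The mdx/mTR mice differed among themselves, and the genes did not share 1 order. Vim was highest in replicates 5 (390 CPM) and 2 (316 CPM) and lowest in replicates 6 (153 CPM) and 1 (166 CPM). Lmna had the same ends, with 137 CPM in replicate 5 and 117 CPM in replicate 2 against 82.8 CPM in replicate 6 and 84.7 CPM in replicate 1. Nes was also highest in replicates 2 and 5 (133 and 132 CPM) and lowest in replicate 6 (81.0 CPM). Synm was the reverse, lowest in replicates 2 (799 CPM) and 5 (821 CPM) and highest in replicate 6 (1089 CPM). Newly formed fibre markers summed to 513 CPM in replicate 5 and 241 CPM in replicate 2, against 90.3 to 133 CPM in the other 4. Macrophage and leukocyte markers were also highest in replicates 5 (356 CPM) and 2 (226 CPM), and lowest in replicate 1 (109 CPM). Fibroblast markers summed to 4460 CPM in replicate 5 and 4256 CPM in replicate 2, against 2254 to 2795 CPM in the other 4. Mature fibre markers were lowest in the same mice, at 110818 CPM in replicate 5 and 119023 CPM in replicate 2, against 123586 to 155576 CPM. Summed markers of tenocytes, satellite cells and myoblasts, pericytes and smooth muscle, and mesothelial cells were also highest in replicates 5 and 2. The sums for endothelial, Schwann cell, epithelial, adipocyte and neuromuscular junction markers did not have both of these replicates at the top. The part of these cell types in the order of Vim, Nes, Lmna and Synm was not tested.

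Krt8 and Krt18 followed another order. Both were highest in replicates 2 (0.767 and 3.90 CPM) and 1 (0.750 and 3.63 CPM), and replicate 5, first for Vim and Lmna, had only 0.426 and 1.90 CPM. Replicates 1, 2 and 6 are also the deepest libraries (58082302, 59816676 and 60330410 counts). Replicate 6 was the lowest for Krt18 (1.75 CPM) and had 0.540 CPM of Krt8. The part of depth in this order was not tested. In counts thinned to the smallest library total, the log2 fold change of Krt18 was 4.46 and that of Krt8 3.72, a setting added after the data were seen. In WT, replicate 2 was the highest for Vim (140 CPM), Nes (72.4 CPM), Krt8 and Krt18 and the lowest for Des (3518 CPM), Synm (1245 CPM) and Krt19 (0.279 CPM).

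**Figure D4:**
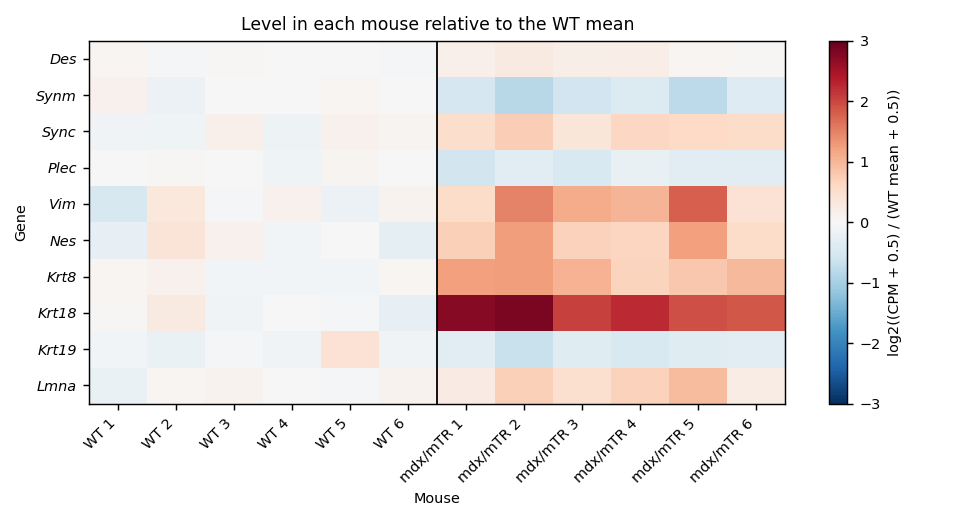
Each cell is the log2 of a gene's level in a mouse over the mean of the WT mice, with 0.5 CPM added to both, on a colour scale from -3 (blue) to 3 (red); rows are genes and columns are mice. Vim and Lmna are strongest in mdx/mTR replicates 2 and 5, where Synm is weakest, and Krt18 is strong in all 6 mdx/mTR mice.

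Genes whose levels followed a member most closely from mouse to mouse were sought among genes of at least 5 CPM, by Pearson r over the 12 libraries after each group's mean was removed. The closest to Vim were the lysosomal enzyme genes Lipa (r = 0.98) and Man2b1 (r = 0.98), and the closest to Nes were Manba (r = 0.96) and Vasp (r = 0.94). Dclk1 and Trim47 were closest to Lmna (both r = 0.96), and Kif1c and Anapc13 to Synm (both r = 0.97). For Sync the closest included Ankrd1 (r = 0.89), a stress-induced titin-binding protein gene that was itself higher (log2 fold change 3.24). For Plec they were Zbtb7a and Nr2f6 (both r = 0.89) and for Des Psmb5 and Rnf217 (both r = 0.86). The values for Krt8 (Mdp1 and Oraov1, both r = 0.87), Krt18 (Mrpl9 and Dbi, both r = 0.87) and Krt19 (Gm6307 and Enho, both r = 0.82) rest on few counts. Each is the top of a long ranking of genes over 12 libraries and is given as a description only.

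The proteins that anchor filaments to membranes and to other filament systems were listed beside the 10 genes. Of 10 plakins and desmosomal linkers, 9 were tested, 4 were higher and 1 was lower, with a median log2 fold change of 0.09. Among all genes tested, 25% were higher and 23.4% lower. Of the 4 higher, Eppk1 and Evpl entered the test only through mdx/mTR, the group in which they were high. Their calls are therefore not support of the same kind as the others. Pkp2, a desmosomal plaque protein gene, rose from 2.69 ± 0.408 to 7.85 ± 1.01 CPM (1.54 ± 0.12, adjusted p 5.5e-07). Eppk1, the keratin-binding plakin epiplakin, rose from 0.278 ± 0.126 to 0.715 ± 0.148 CPM (1.36 ± 0.28, adjusted p 0.0013). Its lowest WT level was 0.111 CPM, and it passed the filter on low counts only through mdx/mTR. Of the giant plakins, Macf1 rose from 155 ± 7.72 to 217 ± 29.6 CPM (0.49 ± 0.08, adjusted p 0.00024), and Dst, which encodes dystonin, fell from 1296 ± 77.7 to 1005 ± 94.6 CPM (-0.37 ± 0.07, adjusted p 0.00086). Dst was thus at 77.5% of its WT mean, as was Plec.

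Of 17 costamere and Z-disc anchor genes, all tested, 4 were higher and 1, Dmd (-2.34 ± 0.09, adjusted p 8.3e-10), was lower. The median log2 fold change was 0.04, and 25% of all genes tested were higher and 23.4% lower. Itga7, the laminin-binding integrin chain of muscle, rose from 144 ± 9.98 to 207 ± 19.7 CPM (0.53), and its partner Itgb1 from 270 ± 20.5 to 324 ± 29.4 CPM (0.26). Vcl, which encodes vinculin, rose from 151 ± 13.9 to 198 ± 20.4 CPM (0.39). Dtna, the dystrobrevin to which synemin and syncoilin bind, rose from 152 ± 7.66 to 181 ± 18.2 CPM (0.25 ± 0.07, adjusted p 0.0071), with overlapping groups.

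Of 12 genes for chaperones and turnover of intermediate filaments, all tested, 2 were higher and 1 lower, with a median log2 fold change of 0.10. Both counts are to be read against 25% higher and 23.4% lower over all genes tested. Capn2, a calpain protease gene, rose from 87.4 ± 3.83 to 106 ± 10.5 CPM (0.27), and Hspb1, a small heat shock protein gene, from 27.0 ± 2.81 to 33.8 ± 6.24 CPM (0.32, adjusted p 0.022). The Hspb1 call was lost without WT replicate 6 (adjusted p 0.051). Mtm1, whose product myotubularin binds desmin, fell from 22.8 ± 1.16 to 18.9 ± 0.640 CPM (-0.27), and with library totals alone it did not pass (-0.12, adjusted p 0.085). The desmin chaperone Cryab averaged 407 ± 24.3 and 448 ± 78.6 CPM (0.14, adjusted p 0.26), and passed with library totals alone (0.30, adjusted p 0.042). Bag3 averaged 158 ± 7.16 and 143 ± 15.4 CPM (-0.15, adjusted p 0.079). Without mdx/mTR replicate 2 Bag3 passed (-0.20, adjusted p 0.013), and library totals alone turned it to 0.01 (adjusted p 0.95).

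**Figure D5:**
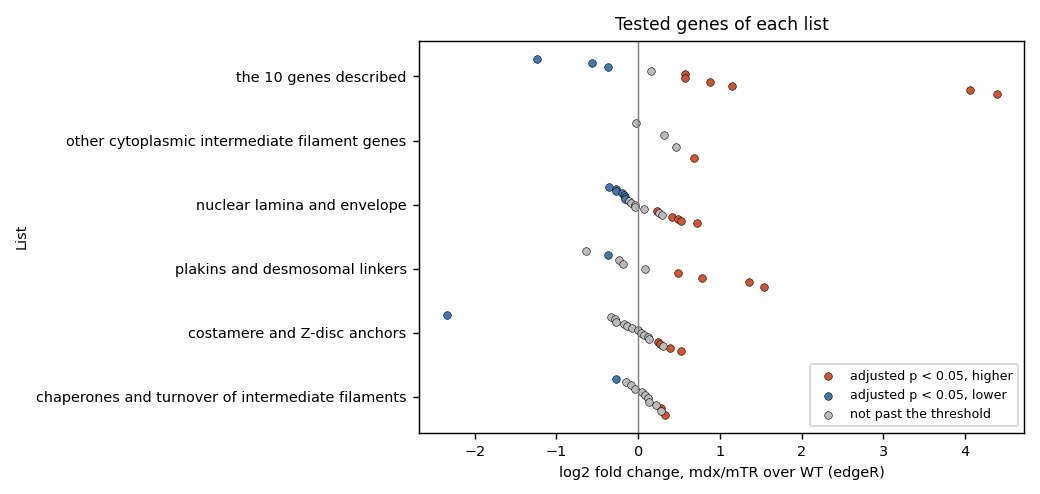
Horizontal axis, log2 fold change (mdx/mTR over WT) for the tested genes of each list (rows); each point is a gene, coloured by whether it passed an adjusted p of 0.05 and in which direction. Krt18 and Krt8 stand apart from all other points on the right, and Dmd (-2.34) on the left.

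The authors' deposited table gives the same direction for the 10 genes and an adjusted p under 0.05 for all 10. For Des the authors' deposited table has a log2 fold change of 0.14 with an adjusted p of 0.0088. For Krt8 and Krt18 the authors' deposited table has smaller values than the fit above, 2.70 and 3.56. For Krt19 the authors' deposited table has -0.998, for Vim 1.06 and for Synm -0.57.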

How the data were processed

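The deposited data are raw counts by gene symbol in each of the 12 samples, and the authors' own comparison of the groups. The submitters' processing notes name FastQC, STAR, DESeq2 and the build mm10, while the counter, annotation and strand handling are not given in the sources used here. Per the file headers, the deposited comparison holds a mean normalized signal, log2 fold changes and their errors, a score for the test, and raw and adjusted p-values. Of the sample columns, 0 were left unmatched.

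The counts went unchanged into edgeR 4.0.16 (R 4.3.3). filterByExpr kept 13937 genes with 99.97% of counts, libraries were scaled by TMM, and the quasi-likelihood model had group as its single term. The SE of a fold change is the log2 value over the root of its F. The 10 genes, the gene lists and the tests were chosen with earlier results of these data known. The rule for other named genes took the 4 smallest p-values of each list plus 9 fixed genes, and the nearest 2 genes to each member. Lists covered other intermediate filament genes, the nuclear envelope, plakins, costameres and chaperones, with 13 marker lists for cell types. Tenocyte markers were higher in 4 of 5 (131 to 203 CPM in WT, 238 to 480 CPM in mdx/mTR), and adipocyte markers passed in 0 of 3 by edgeR. Of all genes tested, 48.3% passed, 25% as higher. Genes overlapping a member, and Msln and Terc, were named after their values were seen. Alternatives were other filters and scalings, DESeq2 1.42.0, limma-voom (limma 3.58.1), a replicate block and each sample left out; thinning was added after seeing the data. The procedures were tested on simulated data. Ratios used scipy 1.17.1 and Python 3.11.15. Gene positions, transcript lengths and shared 50-base stretches came from GENCODE M21 (GRCm38, the same assembly as mm10). Intervals cover counting error only, since molecular identifiers are not given in the sources used here. Replicates differed by more than counting noise, by chi-square (9.29 to 122 per degree of freedom), and none was treated as a repeat of another.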

Additional observations from a re-analysis of the deposited data

Results flagged for a closer look

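Within each group of 6, the gap between the highest or lowest sample and its neighbour was set against the range of the group. Of 80 groups of values examined, 6 stood out, where chance gives 4 (1 in 20). Krt19 in WT replicate 5 was 0.705 CPM, against 0.279 to 0.361 CPM in the other WT mice. Prph, the gene of the neuronal filament peripherin, was 1.06 CPM in WT replicate 2 (0.183 to 0.472 CPM in the others). Without that mouse its log2 fold change was 0.82 (edgeR adjusted p 0.017). In the main fit Prph passed the filter on low counts only through mdx/mTR. Dst was lowest in WT replicate 2 (1151 CPM, against 1291 to 1371 CPM). Tor1a (7.73 CPM, against 5.14 to 5.56 CPM) and Capn2 (126 CPM, against 96.1 to 107 CPM) were highest in mdx/mTR replicate 5, and Vcl in mdx/mTR replicate 2 (238 CPM, against 180 to 196 CPM).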

How the results depend on the processing

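Between 6094 and 7156 genes passed under the alternatives run, and 8 to 10 of the 10 genes did. With library totals alone, 78.2% of calls were higher in place of 51.6%. The 9 genes called kept their direction and their call wherever they were tested. Des, at 0.15, passed in 7 of 21 alternatives, with 0.13 to 0.18 when each mouse was left out.

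The main fit did not pair mice by replicate number, and whether the numbers mark pairs was not tested beyond a correlation. Deviations from group means correlated at -0.15 to 0.35 in same-numbered samples. Of the 6 numbers, 2 were over 0.1 and 2 matched best with their own number. In both respects these were replicates 1 (0.35) and 2 (0.28). With a replicate block, 6420 genes passed. The block left the ratio differences at 0.94 (Vim to Des), 0.72 (Nes to Des), -0.52 (Plec to Des), all with adjusted p 0.052, and 0.35 (Lmna to Lmnb2, adjusted p 0.078); its sign-flip test cannot go below p 0.031 before adjustment.

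The difference in Krt18 to Krt8 was 1.38 with 5 counts added, and -0.25 to 0.59 when each mouse was left out, negative only without WT replicate 6. The log2 fold change of Krt10 was positive with upper quartile scaling (0.0198), library totals alone (0.135), and without WT replicate 2, WT replicate 4, mdx/mTR replicate 4 or mdx/mTR replicate 6, within a range of -0.107 to 0.0445 when each mouse was left out. Library totals alone also turned Bag3 (0.00578) and Emd (0.0671). The cause of these shifts was not tested. Depth limits Krt8 and Krt19, whose counts per library reached only 50 and 27.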
